A study of Mus musculus with 32 samples.

Results

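Levels of 10 genes of the antioxidant response and of iron storage were followed across mouse oocytes, early embryos and embryonic stem cells. The genes are Nfe2l2, Hmox1, Ftl1, Fth1, Gclc, Gclm, Txnrd1, Srxn1, Nqo1 and Gsta4. They were chosen by name, and each was found once by its Ensembl identifier, which gives 10 of the 55335 genes in the count tables. The 32 libraries form 16 groups with 2 replicates (rep) each. At postnatal day 14 (P14), growing oocytes were transgenic for histone H3.3, either H3.3K4M, in which lysine 4 is methionine, or H3.3WT; the promoter that drives the transgene is not given in the labels. Metaphase II (MII) oocytes, the mature arrested stage, came from wild-type females of 12 months or 8 weeks. Embryos at the 2-cell (2C) and 4-cell (4C) stages, titled as products of in vitro fertilisation, were wild type and came from females of 6 to 8 weeks; they were cultured in KSOM medium with aphidicolin (APH, which blocks replicative DNA polymerases), cycloheximide (CHX, which blocks translation), MG132 (which blocks the proteasome) or the vehicle DMSO. A further group of 2-cell embryos came from 12-month females and had no agent and no vehicle, so age and vehicle cannot be told apart there. Cells of the wild-type embryonic stem cell (ESC) line AB2.2 received CHX, MG132 or DMSO. The titles of the CHX and MG132 stem cell libraries hold the word Long, without a length. Doses, lengths of treatment and the number of oocytes or embryos per library are not given in the labels.

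The members work in linked systems. Nfe2l2 encodes NRF2, a transcription factor that the adaptor KEAP1 normally hands to the proteasome. When oxidants or electrophiles modify KEAP1, NRF2 accumulates, pairs with small MAF proteins and activates genes that carry antioxidant response elements, which the repressor BACH1 can occupy instead. Hmox1 encodes heme oxygenase 1, which opens heme and frees its iron, and Fth1 and Ftl1 encode the heavy and light chains of ferritin, the shell in which cells store iron. Gclc and Gclm encode the catalytic and modifier subunits of glutamate-cysteine ligase, the limiting step of glutathione synthesis. Txnrd1 encodes cytosolic thioredoxin reductase and Srxn1 encodes sulfiredoxin, which restores overoxidised peroxiredoxins. Nqo1 encodes a quinone reductase, and Gsta4 a glutathione transferase that acts on aldehydes from lipid peroxidation. Mouse oocytes store RNA for the early embryo, and the embryo's own genome becomes broadly active at the 2-cell stage.

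Levels are in CPM, a gene's counts scaled to 1000000 counts of its library; libraries held between 14313718 and 34713159 counts. Differences are log2 fold changes with their standard error (SE), fitted and tested in edgeR (quasi-likelihood), and p values were adjusted over all genes tested by the method of Benjamini and Hochberg. The fit rescales the libraries by further factors (TMM), which CPM do not use. A log2 fold change can therefore differ from the ratio of the CPM printed beside it. For Nqo1, means of 32.5 CPM in 8-week MII oocytes and 21.7 CPM in vehicle 2-cell embryos stand beside a fitted -1.39. A call is an adjusted p under 0.05. Since the labels do not say that replicates came from separate cultures or animals, the p values speak only for the spread among these libraries, which may be technical. CPM are shares of a library, so that fewer cells of a kind and less RNA per cell cannot be told apart. The labelled cell types were checked against fixed marker lists. All 8 oocyte markers averaged at least 1 CPM in both growing-oocyte groups (summed level 33035 to 34918 CPM) and in both MII groups (3862 to 6221 CPM). All 7 pluripotency markers did so in every stem cell group (4216 to 4940 CPM), and all 8 markers of the 2-cell stage did so in vehicle 2-cell embryos (984 and 1222 CPM). With CHX, 2 of these 8 averaged at least 1 CPM at 2 cells (10.3 and 27.8 CPM in sum). All 8 also did so in 4-cell embryos with CHX or MG132 and in CHX-treated stem cells (79.0 and 80.2 CPM). In vehicle 2-cell embryos 7 of the 8 oocyte markers averaged at least 1 CPM. The threshold alone therefore does not tell these stages and cells apart.

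In the mm10 build, Nfe2l2 (ENSMUSG00000015839.6) lies at chr2:75675513-75704641 on the minus strand and Srxn1 (ENSMUSG00000032802.8) at chr2:152105516-152111376 on the plus strand. Hmox1 (ENSMUSG00000005413.8) is at chr8:75093621-75100589, plus strand, and Nqo1 (ENSMUSG00000003849.8) at chr8:107388225-107403206, minus strand. Gclc (ENSMUSG00000032350.9) at chr9:77754535-77794485 and Gsta4 (ENSMUSG00000032348.6) at chr9:78182774-78209349 are near each other on the plus strand. Ftl1 (ENSMUSG00000050708.16) lies at chr7:45457944-45459884, minus strand, and Fth1 (ENSMUSG00000024661.7) at chr19:9980598-9985098, plus strand. Gclm (ENSMUSG00000028124.15) is at chr3:122245557-122270732 and Txnrd1 (ENSMUSG00000020250.10) at chr10:82833951-82897712, both on the plus strand. All are annotated as protein-coding, and the counts are per gene, so exons and untranslated regions are not separated.

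Promoters from RefSeq (GRCm38.p6, 250 bases before each transcription start, written along the gene's strand) were held for 7 members in 10 windows. They were searched on both strands for TGACNNNGC, the core of the antioxidant response element, and for TGAGTCA, a site of the AP-1 kind. The core was in 3 windows, those of Nfe2l2 (TGACTCCGC, plus strand), Gclm (minus strand) and 1 of 3 starts of Txnrd1 (minus strand), while 10.2% of all 32851 promoters of that length hold it. Among the 7 members with a window, TGAGTCA occurred in Srxn1 only, at 2 places, and in 4.46% of all promoters. No window was held for Hmox1, Gsta4 and Gclc, so they were not searched. The windows searched for Ftl1, Nqo1 and both starts of Fth1 hold neither run of letters, which says nothing about the factors. The sequences below are those of the 5 members that were lower with CHX in stem cells. Capitals mark a match to either motif, and Nqo1 and Fth1 hold none. For Txnrd1 the window printed is the only 1 of 3 that holds the core, and for Fth1 it is 1 of 2 windows.
Gclm, chr3:122245307-122245556, plus strand: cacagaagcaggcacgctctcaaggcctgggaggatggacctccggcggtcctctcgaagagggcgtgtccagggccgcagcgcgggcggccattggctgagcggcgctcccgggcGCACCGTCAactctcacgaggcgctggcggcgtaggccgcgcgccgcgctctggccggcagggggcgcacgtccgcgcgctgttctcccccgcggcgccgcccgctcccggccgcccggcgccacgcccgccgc
Txnrd1, chr10:82858956-82859205, plus strand: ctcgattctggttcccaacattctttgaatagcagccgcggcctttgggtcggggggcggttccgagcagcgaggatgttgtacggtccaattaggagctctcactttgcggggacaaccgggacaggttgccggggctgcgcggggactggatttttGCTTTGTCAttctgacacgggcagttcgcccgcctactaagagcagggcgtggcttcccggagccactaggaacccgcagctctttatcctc
Srxn1, chr2:152105274-152105523, plus strand: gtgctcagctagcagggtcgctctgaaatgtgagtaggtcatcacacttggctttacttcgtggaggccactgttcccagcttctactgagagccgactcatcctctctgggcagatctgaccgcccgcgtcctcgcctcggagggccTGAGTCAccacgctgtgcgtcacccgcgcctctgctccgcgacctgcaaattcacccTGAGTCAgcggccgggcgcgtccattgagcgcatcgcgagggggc
Nqo1, chr8:107403206-107403455, minus strand: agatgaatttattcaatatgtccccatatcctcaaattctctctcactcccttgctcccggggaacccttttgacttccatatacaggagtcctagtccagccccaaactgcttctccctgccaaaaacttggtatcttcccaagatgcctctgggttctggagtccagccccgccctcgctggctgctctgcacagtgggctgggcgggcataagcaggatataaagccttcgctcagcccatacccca
Fth1, chr19:9982396-9982645, plus strand: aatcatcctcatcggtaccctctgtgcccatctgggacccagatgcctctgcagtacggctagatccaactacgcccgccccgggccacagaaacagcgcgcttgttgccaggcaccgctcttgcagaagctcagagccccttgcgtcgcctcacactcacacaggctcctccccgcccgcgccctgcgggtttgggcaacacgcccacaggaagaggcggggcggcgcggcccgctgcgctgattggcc

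Across the 16 groups, 8 of the 10 members had their highest mean in a stem cell group. The exceptions were Fth1, highest in CHX-treated 4-cell embryos (887 ± 30.7 CPM, SD, n = 2), and Gsta4, highest in H3.3K4M oocytes (393 ± 30.6 CPM, SD, n = 2). Srxn1 stood furthest apart: every stem cell library held at least 37.5 CPM, every other library less than 1 CPM, and 13 libraries held no count. Hmox1 lay between 151 and 203 CPM in stem cells and at most at 9.58 CPM in any oocyte or embryo library, with 4 libraries at 0. Txnrd1 lay between 273 and 385 CPM in stem cells, and its highest value elsewhere was 29.6 CPM. Stem cell libraries were made with another kit (TruSeq poly(A)) than the Smart-Seq2 libraries of oocytes and embryos, so kit and cell type cannot be told apart in these levels, and no test was made between them.

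Ftl1 ranged over 162-fold between group means, the lowest being 15.2 ± 2.09 CPM in 8-week MII oocytes and the highest 2467 ± 84.5 CPM in CHX-treated stem cells (SD, n = 2 each). Nfe2l2 ranged over 247-fold, with its lowest mean in H3.3K4M oocytes and its highest in MG132-treated stem cells. Gclm spanned 13.1-fold and Fth1 14.9-fold, the narrowest ranges among the members. When the 16 groups were ordered by mean, neighbours in the order seldom separated: the libraries did not overlap in 7 of the 15 neighbouring pairs for Nqo1, in 6 for Ftl1, Gclc and Gsta4, in 5 for Nfe2l2, in 4 for Fth1 and Txnrd1, in 3 for Gclm, and in 2 for Hmox1 and Srxn1. For Nqo1 the top of the order was vehicle stem cells (67.6 CPM), then CHX-treated 2-cell embryos (62.8 CPM), MG132-treated stem cells (56.4 CPM) and 12-month MII oocytes (55.9 CPM); among the last 3 of these, each overlapped its neighbour. For Fth1, 8 groups with means between 338 and 557 CPM overlapped one with the next in turn.

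**Figure D1:**
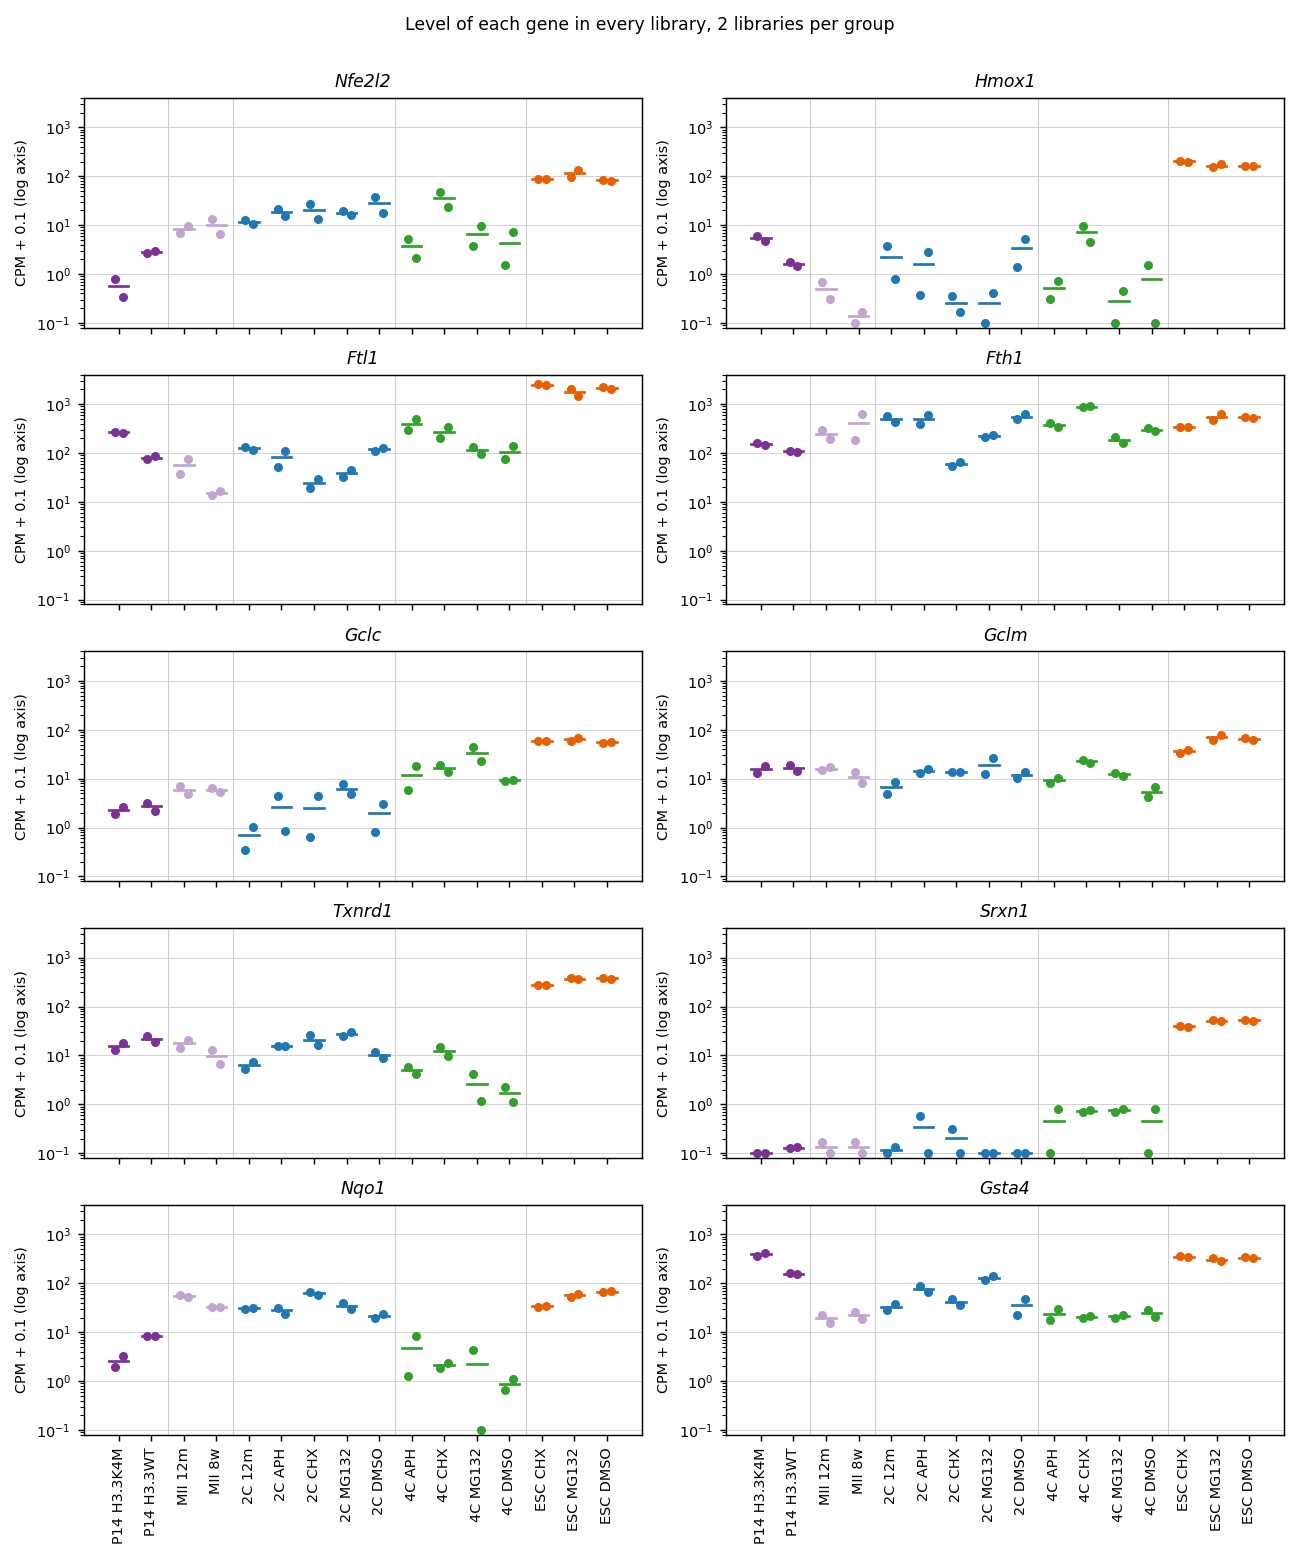
Level of each member in every library, as CPM + 0.1 on a log axis, for the 16 groups; points are libraries and short lines are group means, n = 2. Stem cells lie highest for 8 of the 10 genes, Srxn1 is under 1 CPM outside them, and Fth1 falls to 54.0 and 65.4 CPM in CHX-treated 2-cell embryos.

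Per kilobase of exon, which allows levels of different genes to be compared, Gsta4 ranked first of the members in both groups of growing oocytes (310 CPM per kb with H3.3K4M and 124 CPM per kb with H3.3WT). Fth1 ranked first in 8-week MII oocytes (117 CPM per kb) and in vehicle embryos of 2 cells (160 CPM per kb) and 4 cells (86.4 CPM per kb). In CHX-treated 2-cell embryos Nqo1 ranked first (40.4 CPM per kb) while Fth1 was at 17.2 CPM per kb. Ftl1 ranked first in all 3 stem cell groups, at 1841 CPM per kb with CHX, 1302 with MG132 and 1600 with DMSO.

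H3.3K4M was compared with H3.3WT in growing oocytes, which asks how the altered histone changes the oocyte's RNA. Hmox1, both ferritin chains and Gsta4 were higher with H3.3K4M, while Nfe2l2 and Nqo1 were lower; Gclc, Gclm and Txnrd1 did not pass the test, and Srxn1 was too low to test. That is 4 of the 9 tested members higher, where 8.64% of all 15386 tested genes were higher, and 2 lower, where 13.7% were lower. Nfe2l2 held 0.698 and 0.236 CPM in H3.3K4M oocytes, against 2.63 and 2.90 CPM in H3.3WT oocytes. These few reads gave a log2 fold change of -2.53 ± 0.43 (SE, edgeR adjusted p = 0.00113), which was -3.54 without H3.3K4M rep 1 and -1.78 without H3.3K4M rep 2. Nqo1 held 1.84 and 3.15 CPM with H3.3K4M, against 8.26 and 8.09 CPM with H3.3WT (-1.64 ± 0.24, edgeR adjusted p = 0.000419). Both genes were thus low in either group, and their libraries did not overlap.

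On the iron side, Hmox1 held 5.88 and 4.71 CPM in H3.3K4M oocytes, against 1.65 and 1.39 CPM in H3.3WT oocytes (log2 fold change 1.88 ± 0.27, edgeR adjusted p = 0.000335). Ftl1 held 269 and 257 CPM with H3.3K4M, against 74.1 and 85.3 CPM with H3.3WT (1.80 ± 0.19, edgeR adjusted p = 2.84e-05). Fth1 held 161 and 149 CPM with H3.3K4M, against 111 and 106 CPM with H3.3WT (0.59 ± 0.17, edgeR adjusted p = 0.026). The Fth1 call was lost without either H3.3WT library or H3.3K4M rep 1 (adjusted p 0.0702 to 0.182). Gsta4 held 371 and 414 CPM with H3.3K4M, against 161 and 152 CPM with H3.3WT (1.40 ± 0.17, edgeR adjusted p = 7.71e-05). The 5 calls other than Fth1 held whichever library was left out. Beside these values, 13 cumulus and granulosa markers summed to 13.4 and 13.7 CPM with H3.3K4M and to 21.3 and 16.8 CPM with H3.3WT. Of 5 tested, 1 was called higher and 2 lower with H3.3K4M, while Amh, Has2, Ptx3 and Tnfaip6 were at 0 in all 4 libraries. The 10 macrophage and blood markers summed to 10.9 and 10.6 CPM with H3.3K4M and to 9.27 and 8.41 CPM with H3.3WT, with Hba-a2, Hbb-bs and Hbb-bt at 0 throughout. The 8 markers of the 2-cell stage summed to 28.1 and 40.2 CPM with H3.3K4M and to 139 and 101 CPM with H3.3WT. Their part in the result was not tested.

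Of 5 lists of related genes (regulators of NRF2; the glutathione and thioredoxin systems; other NRF2 targets and detoxification enzymes; superoxide and peroxide enzymes; iron and heme handling), 84 genes beyond the members were tested in growing oocytes. Of these, 8 were higher and 7 lower with H3.3K4M, where 8.64% of all tested genes were higher and 13.7% lower. Their median log2 fold change was 0.09, against 0.00 over all genes. Gpx1, a glutathione peroxidase, was higher at 133 and 144 CPM with H3.3K4M, against 52.9 and 43.3 CPM with H3.3WT (1.61 ± 0.16, edgeR adjusted p = 2.64e-05). Chac1, which degrades glutathione (1.17 ± 0.20), was higher too, as was Cbr3, a carbonyl reductase (2.57 and 3.56 CPM with H3.3K4M, against 1.62 and 1.26 CPM with H3.3WT). Lower were Gsta2, a glutathione transferase (-1.23 ± 0.25), Bach1 (-1.11 ± 0.32) and Prdx4, the peroxiredoxin of the endoplasmic reticulum (-1.04 ± 0.29). None of the 6 tested superoxide and peroxide enzymes was called, and their median was 0.14.

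**Figure D2:**
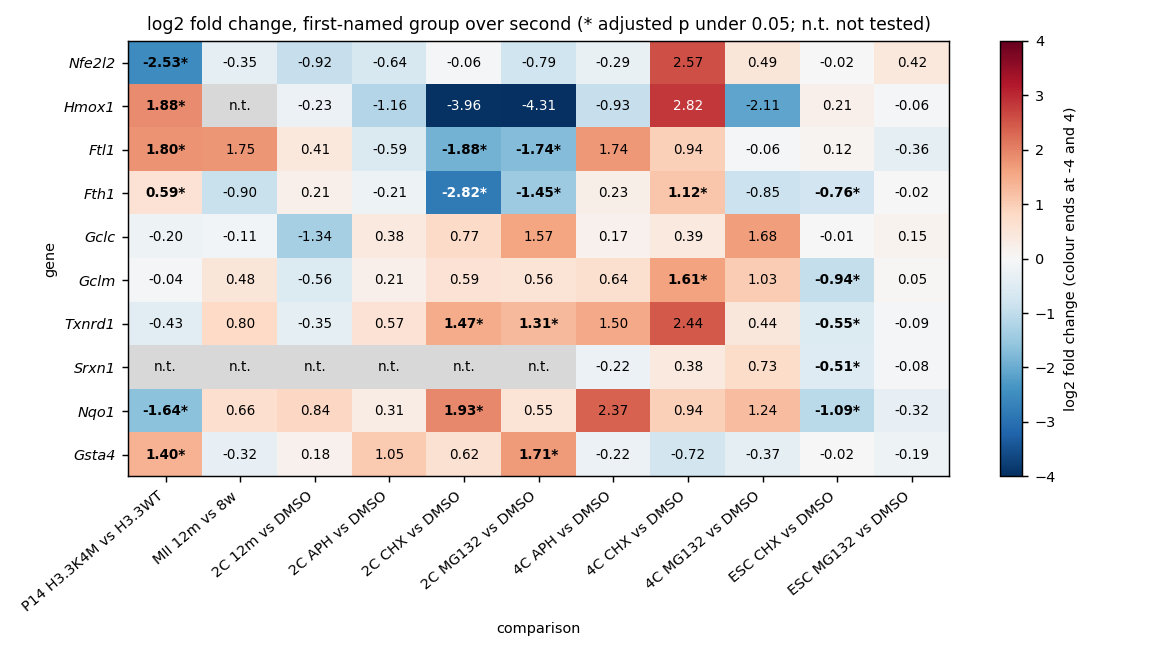
Log2 fold change of each member (rows) in 11 comparisons of genotype, age or agent (columns), first-named group over second; an asterisk marks an edgeR adjusted p under 0.05 and n.t. a gene too low to test. Ferritin chains are higher with H3.3K4M, lower with CHX or MG132 at 2 cells, and Fth1 is higher with CHX at 4 cells (1.12).

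The course of the members through development was followed from H3.3WT growing oocytes to 8-week MII oocytes, vehicle 2-cell and vehicle 4-cell embryos. The first step also differs in genotype, since the growing oocytes carry a transgene. Between growing and MII oocytes every tested member was called: Nfe2l2, Fth1, Nqo1 and Gclc were higher in MII oocytes, and Hmox1, Ftl1, Gsta4, Gclm and Txnrd1 lower. These are 4 higher and 5 lower of 9, where 27.4% of all tested genes were higher and 34.4% lower. Gsta4 fell most among those with many reads, to 26.1 and 18.5 CPM in MII oocytes, against 161 and 152 CPM in H3.3WT oocytes (-3.03 ± 0.26, edgeR adjusted p = 3.19e-05). Ftl1 held 13.7 and 16.7 CPM in MII oocytes, against 74.1 and 85.3 CPM in H3.3WT oocytes (-2.59 ± 0.36, edgeR adjusted p = 0.000411). Nqo1 held 32.9 and 32 CPM in MII oocytes, against 8.26 and 8.09 CPM in H3.3WT oocytes (1.78 ± 0.26, edgeR adjusted p = 0.000444). Txnrd1 was lower by -1.42 ± 0.34 (edgeR adjusted p = 0.00657). The 5 calls of Hmox1, Ftl1, Nqo1, Gsta4 and Txnrd1 held whichever library was left out.

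Fth1 was uneven in MII oocytes of 8-week females, at 183 and 627 CPM, against 111 and 106 CPM in H3.3WT oocytes (1.73 ± 0.54, edgeR adjusted p = 0.0209); without MII rep 1 the log2 fold change was 2.37 and without MII rep 2 it was 0.43, and the call was lost without MII rep 2 and without either H3.3WT library. Hmox1 had 2 counts in the 2 MII libraries together and 99 in the 2 H3.3WT libraries, a ratio of 0.0235 with a 95% counting interval of 0.00281 to 0.0872. Further members lost their call in 3 or 4 of the 4 leave-outs. These were Nfe2l2 (1.63 ± 0.51, edgeR adjusted p = 0.0226, and 0.0784 to 0.149 without H3.3WT rep 1, H3.3WT rep 2 or MII rep 1) and Gclm (-0.87 ± 0.28, adjusted p = 0.0257, and 0.0634 to 0.132 without either H3.3WT library or MII rep 2). Gclc (0.94 ± 0.36, edgeR adjusted p = 0.0473) lost it without any 1 of the 4 libraries (0.059 to 0.292). Gclc and Gclm also lost their calls with no low-count filter, and Gclm with library sizes from genes only. Cumulus and granulosa markers summed to 125 and 87.4 CPM in MII oocytes, against 21.3 and 16.8 CPM in H3.3WT oocytes, with Amh at 0 in both. Of 9 tested, 2 were called higher and 2 lower in MII oocytes, with a median of 3.87 against -0.26 over all genes. Of these 13 markers, Gja1 held 32.7 CPM in MII rep 1 and 0.106 CPM in MII rep 2. Their part in these differences was not tested.

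At the same step, 15 of the 86 tested genes of the 5 related lists were higher in MII oocytes and 40 lower, with a median of -1.10 against -0.26 over all genes. Of all tested genes, 27.4% were higher and 34.4% lower. Idh1, the cytosolic NADP-dependent isocitrate dehydrogenase, was higher at 260 and 98.3 CPM in MII oocytes, against 23.6 and 24.0 CPM in H3.3WT oocytes (2.67 ± 0.38, edgeR adjusted p = 0.000434). Ireb2, an iron regulatory protein that binds ferritin messages, was higher at 206 and 175 CPM, against 35.6 and 18.4 CPM (2.63 ± 0.34, edgeR adjusted p = 0.000252). Mgst1, a microsomal glutathione transferase, was called higher with uneven MII libraries (18.5 and 1.38 CPM). Chac1, Maff, a small MAF protein, and Cbr3 had no count in either MII library. Iron and heme handling had 4 members higher and 9 lower of 18 (median -2.12), and the other NRF2 targets 5 higher and 12 lower of 21 (median -1.97).

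From MII oocytes to vehicle 2-cell embryos, Ftl1 rose while Nqo1 and Gclc fell, 1 higher and 2 lower of 9 tested members, where 10.1% of all tested genes were higher and 10.1% lower. Ftl1 held 109 and 128 CPM in vehicle 2-cell embryos, against 13.7 and 16.7 CPM in MII oocytes (2.14 ± 0.43, edgeR adjusted p = 0.00665), and the call held whichever library was left out. The 10 macrophage and blood markers summed to 48.8 and 30.95 CPM in vehicle 2-cell embryos, against 3.04 and 8.15 CPM in MII oocytes, with 1 of 8 tested called higher and with Hba-a2 and Hbb-bt at 0 in MII oocytes. The 13 cumulus and granulosa markers summed to 82.8 and 55.7 CPM in vehicle 2-cell embryos, against 125 and 87.4 CPM in MII oocytes, with 1 of 12 tested called lower and Amh at 0 in both groups. The part of these markers in the result was not tested. Nqo1 held 19.8 and 23.5 CPM in vehicle 2-cell embryos, against 32.9 and 32 CPM in MII oocytes (-1.39 ± 0.32, edgeR adjusted p = 0.0132). It lost the call without either vehicle 2-cell library (0.0553 to 0.129). Gclc held 0.7 and 3 CPM in vehicle 2-cell embryos, against 6.34 and 5.32 CPM in MII oocytes (-2.44 ± 0.76, edgeR adjusted p = 0.0481), and lost the call without either MII library or 2-cell rep 1 (0.101 to 0.241) and with library sizes from genes only. Its log2 fold change was -1.58 without 2-cell rep 1 and -3.74 without 2-cell rep 2. Hmox1 had 179 counts in the 2-cell libraries and 2 in the MII libraries, a ratio of 89.4 with a 95% counting interval of 24.4 to 744; the fit across libraries did not call it (edgeR adjusted p = 0.0929), and DESeq2 did (adjusted p = 0.0233). With library sizes that leave out repeats, the median of all genes at this step was 0.64 in place of 0.33, and the split of all calls was 2737 higher and 1654 lower in place of 2317 and 2324.

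From vehicle 2-cell to vehicle 4-cell embryos, Gclc rose and Nfe2l2, Nqo1 and Txnrd1 fell, 1 higher and 3 lower of 9 tested members, where 19.6% of all tested genes were higher and 29.4% lower. Nqo1 changed most, to 0.547 and 0.997 CPM in 4-cell embryos, against 19.8 and 23.5 CPM in 2-cell embryos (-4.41 ± 0.38, edgeR adjusted p = 1.09e-05). Txnrd1 held 2.22 and 1.03 CPM in 4-cell embryos, against 11.4 and 8.63 CPM in 2-cell embryos (-2.20 ± 0.53, edgeR adjusted p = 0.00611). Both calls held whichever library was left out (Txnrd1 was -2.88 without 4-cell rep 1), in a comparison whose median over all genes was -0.57. Nfe2l2 held 1.46 and 7.08 CPM in 4-cell embryos, against 38.1 and 17.9 CPM in 2-cell embryos (-2.31 ± 0.70, edgeR adjusted p = 0.0201), and lost the call without 4-cell rep 1 (-1.58, adjusted p = 0.0657) or 2-cell rep 1 (-1.79, adjusted p = 0.0953); without 4-cell rep 2 it was -3.81. Gclc held 8.93 and 9.42 CPM in 4-cell embryos, against 0.7 and 3 CPM in 2-cell embryos (2.70 ± 0.77, edgeR adjusted p = 0.0152), and lost it without 2-cell rep 1 (1.90, adjusted p = 0.0908); without 2-cell rep 2 it was 4.06. The modifier subunit Gclm was not called (-0.76 ± 0.44, edgeR adjusted p = 0.173). Srxn1 had 0 and 21 counts in the 4-cell libraries and none in the 2-cell libraries, so that every one of its counts came from 4-cell rep 2. DESeq2 size factors moved the median of all genes to -0.36 and library sizes from genes only to -0.73.

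Around these members, 14 of the 94 tested genes of the related lists were higher and 20 lower in 2-cell embryos than in MII oocytes, with a median of 0.30 against 0.33 over all genes. Of all tested genes, 10.1% were higher and 10.1% lower. Blvra, the biliverdin reductase that takes over the product of heme oxygenase, fell to 4.48 and 5.82 CPM in 2-cell embryos, against 152 and 192 CPM in MII oocytes (-5.88 ± 0.43, edgeR adjusted p = 5.41e-05). Blvrb, the other biliverdin reductase, was higher (4.87 and 3.04 CPM, against 0.0362 and 0 CPM). Txnip, which binds and inhibits thioredoxin, fell to 31.3 and 19.9 CPM in 2-cell embryos, against 268 and 235 CPM in MII oocytes (-4.11 ± 0.51). At the next step, 23 of 94 were higher and 30 lower in 4-cell embryos, where 19.6% of all tested genes were higher and 29.4% lower. The median of these 94 was 0.42, against -0.57 over all genes. Tfrc, the transferrin receptor that imports iron, was at 481 and 474 CPM in 4-cell embryos, against 22.0 and 20.6 CPM in 2-cell embryos (4.90 ± 0.29, edgeR adjusted p = 1.9e-06). Bach1 was at 106 and 124 CPM in 4-cell embryos, against 3.36 and 8.60 CPM in 2-cell embryos (4.66 ± 0.58), and Glrx3, an iron-handling glutaredoxin, rose by 4.29 ± 0.52. Osgin1 and Slc48a1, a heme transporter, had no count in either 4-cell library.

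**Figure D3:**
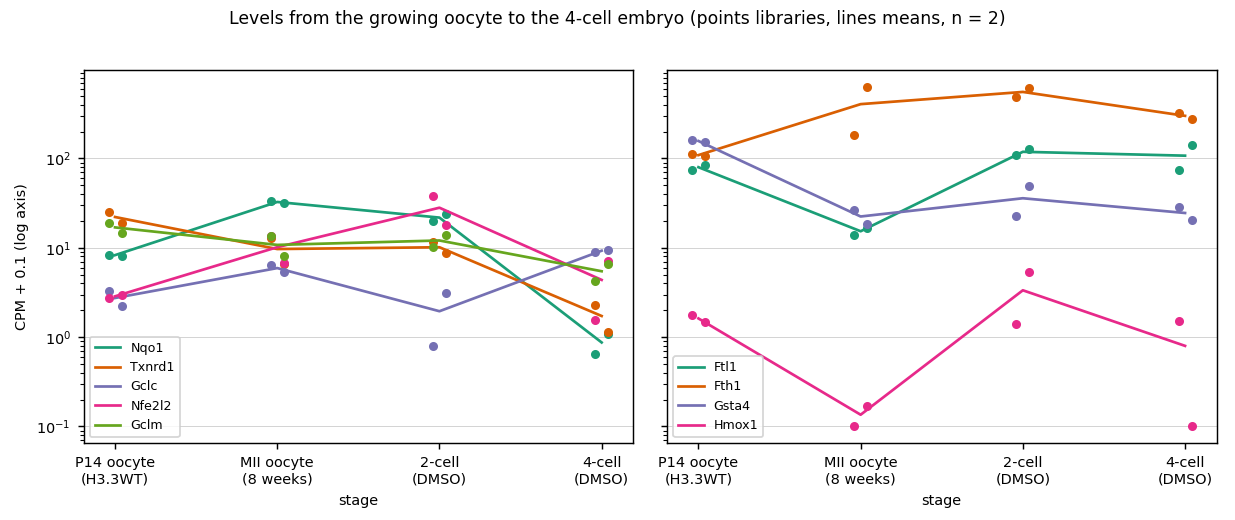
Levels of 9 members as CPM + 0.1 on a log axis at 4 stages, from H3.3WT growing oocytes to vehicle 4-cell embryos; points are libraries and lines join means, n = 2. Nqo1 is at 0.547 and 0.997 CPM at 4 cells, Ftl1 is lowest in MII oocytes, and Gclc is lowest at 2 cells.

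Maternal age gave no called member. In MII oocytes of 12-month against 8-week females, 0 of 8 tested members were called with edgeR, where 0.272% of all tested genes were higher and 0.530% lower. Members with an unadjusted p under 0.05 numbered 2, and DESeq2 called 1, beside 2305 and 1017 of all 15083 tested genes. Ftl1 held 37.0 and 74.8 CPM at 12 months, against 13.7 and 16.7 CPM at 8 weeks (1.75 ± 0.43, edgeR adjusted p = 0.148, DESeq2 adjusted p = 0.00489). Nqo1 held 58.4 and 53.3 CPM at 12 months, against 32.9 and 32 CPM at 8 weeks (0.66 ± 0.26, edgeR adjusted p = 0.306). In both, the libraries of the ages did not overlap. Hmox1 had 22 counts at 12 months and 2 at 8 weeks, a ratio of 10.9 with a 95% counting interval of 2.67 to 95.4. Leaving out either 8-week library changed the picture, since Fth1 was then called without rep 1 (-1.59, edgeR adjusted p = 0.0221) and Ftl1 without rep 2 (2.02, edgeR adjusted p = 0.0441). None of the 75 tested genes of the related lists was called.

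In 2-cell embryos of 12-month females against vehicle embryos of younger females, 0 of 9 members were called with edgeR and 0 with DESeq2, and 1 had an unadjusted p under 0.05; 0.469% of all tested genes were higher and 0.746% lower. That 1 was Nqo1, at 30.3 and 31.2 CPM in 12-month embryos, against 19.8 and 23.5 CPM in vehicle embryos (0.84 ± 0.31, edgeR adjusted p = 0.258). Over all 22391 tested genes, 3165 had an unadjusted p under 0.05, and DESeq2 called 1132. Of the 93 tested genes of the related lists, 2 were higher and 1 lower. The 2 were Abcc1, a glutathione-conjugate exporter (13.3 and 13.8 CPM, against 1.86 and 1.61 CPM; 3.3 ± 0.56, edgeR adjusted p = 0.0155), and Gstp1, a glutathione transferase (121 and 159 CPM, against 26.3 and 15.5 CPM; 3.07 ± 0.64, edgeR adjusted p = 0.0448). The mitochondrial iron importer Slc25a28 was lower (-3.95 ± 0.82).

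Aphidicolin gave no called member either. At 2 cells, 0 of 9 members were called with edgeR and 0 with DESeq2, where 0.00893% of all tested genes were higher and 0.192% lower. Gsta4 (87.3 and 66.1 CPM with APH, against 22.6 and 48.9 CPM with DMSO) was the 1 member with an unadjusted p under 0.05. Among all 22391 tested genes, 2293 had an unadjusted p under 0.05, and DESeq2 called 584. At 4 cells, edgeR called 0 of all 22520 tested genes higher (0%) and 0 lower, although 1846 had an unadjusted p under 0.05 and DESeq2 called 270. The 1 member with an unadjusted p under 0.05 was Ftl1, at 290 and 502 CPM with APH, against 73.8 and 141 CPM with DMSO (1.74 ± 0.41, edgeR adjusted p = 0.519, DESeq2 adjusted p = 0.00694). None of the 93 and 97 tested genes of the related lists was called at 2 and 4 cells. Markers of the 2-cell stage summed to 96.3 and 214 CPM with APH at 2 cells, against 984 and 1222 CPM with DMSO. Of 8 tested, 3 were lower with APH, and their part in the members' levels was not tested.

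At the 2-cell stage, both CHX and MG132 lowered the ferritin chains and raised Txnrd1 relative to DMSO. With CHX, Nqo1 was higher as well, which makes 2 of 9 members higher, where 11.0% of all tested genes were higher, and 2 lower, where 13.0% were lower. Fth1 held 54.0 and 65.4 CPM with CHX, against 493 and 617 CPM with DMSO (-2.82 ± 0.34, edgeR adjusted p = 0.000275), a 7.04-fold difference in the fit. Ftl1 held 19.3 and 29.2 CPM with CHX, against 109 and 128 CPM with DMSO (-1.88 ± 0.40, edgeR adjusted p = 0.00601). Nqo1 held 66.7 and 58.9 CPM with CHX, against 19.8 and 23.5 CPM with DMSO (1.93 ± 0.32, edgeR adjusted p = 0.00146). These 3 calls held whichever library was left out. Txnrd1 held 26.0 and 16.2 CPM with CHX, against 11.4 and 8.63 CPM with DMSO (1.47 ± 0.37, edgeR adjusted p = 0.0141), and lost the call without CHX rep 1 or DMSO rep 2 (0.0769 and 0.0817). Hmox1 was at or under 0.247 CPM with CHX, against 1.30 and 5.20 CPM with DMSO (-3.96 ± 1.53, edgeR adjusted p = 0.0818), and DESeq2 called it (adjusted p = 0.0196).

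With MG132 at 2 cells, Gsta4 and Txnrd1 were higher and Ftl1 and Fth1 lower, 2 and 2 of 9, where 5.10% of all tested genes were higher and 4.68% lower. Gsta4 held 115 and 143 CPM with MG132, against 22.6 and 48.9 CPM with DMSO (1.71 ± 0.39, edgeR adjusted p = 0.0176). Fth1 held 211 and 233 CPM with MG132, against 493 and 617 CPM with DMSO (-1.45 ± 0.33, edgeR adjusted p = 0.0162). Ftl1 held 32.1 and 45.6 CPM with MG132, against 109 and 128 CPM with DMSO (-1.74 ± 0.40, edgeR adjusted p = 0.0185). Groups did not overlap in any of these, but no call held through all 4 leave-outs. Gsta4 lost it without MG132 rep 2 or DMSO rep 1 (0.0942 and 0.11) and was 2.48 without DMSO rep 2, and both ferritin chains lost it without either MG132 library or DMSO rep 2 (0.0566 to 0.146). Txnrd1 held 24.5 and 29.6 CPM with MG132, against 11.4 and 8.63 CPM with DMSO (1.31 ± 0.37, edgeR adjusted p = 0.0465). It lost the call without any 1 of the 4 libraries (0.111 to 0.24), with DESeq2 size factors, with no low-count filter and with library sizes from genes only. Nfe2l2 itself was not called with CHX (-0.06 ± 0.45, edgeR adjusted p = 0.948) or with MG132 (-0.79 ± 0.45, adjusted p = 0.309).

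Set against each other at 2 cells, MG132 left Fth1 higher than CHX did (1.36 ± 0.33, edgeR adjusted p = 0.0237) and Nqo1 lower (-1.39 ± 0.31, adjusted p = 0.0186), 1 and 1 of 9 members, where 5.41% of all tested genes were higher and 4.09% lower. Both calls were lost without CHX rep 1 or either MG132 library (0.0523 to 0.23). For Ftl1 the difference was 0.15 ± 0.39 and for Txnrd1 -0.16 ± 0.36. Beside these results, the markers of the 2-cell stage summed to 10.3 and 27.8 CPM with CHX and to 54.6 and 73.7 CPM with MG132, against 984 and 1222 CPM with DMSO. The oocyte markers summed to 4773 and 8499 CPM with CHX and to 7016 and 8061 CPM with MG132, against 3007 and 3295 CPM with DMSO. Unfertilised 8-week MII oocytes held 13.7 and 16.7 CPM of Ftl1, 32.9 and 32 CPM of Nqo1, and 183 and 627 CPM of Fth1, so that Fth1 with CHX lay below both MII libraries. The 10 macrophage and blood markers summed to 9.54 and 9.01 CPM with CHX and to 11.03 and 7.23 CPM with MG132, against 48.8 and 30.95 CPM with DMSO; 0 of 8 tested were called with either agent, and Adgre1 was at 0 with CHX. The 13 cumulus and granulosa markers summed to 38.2 and 28.3 CPM with CHX and to 61.8 and 52.5 CPM with MG132, against 82.8 and 55.7 CPM with DMSO. Of 11 tested, 4 were lower with CHX, and 1 was higher and 2 lower with MG132, with Amh, Foxl2, Fst, Inha and Ptx3 at 0 with both agents. Amh and Inha were at 0 with DMSO as well. The part of these markers in the differences was not tested.

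Of the 93 tested genes of the related lists, CHX at 2 cells gave 15 higher and 24 lower, with a median of -0.64 against -0.26 over all genes. Of all tested genes, 11.0% were higher and 13.0% lower. The glutathione and thioredoxin systems had 5 higher and 10 lower of 28, and the regulators of NRF2 3 higher and 0 lower of 14. Blvra held 109 and 138 CPM with CHX, against 4.48 and 5.82 CPM with DMSO (4.98 ± 0.61, edgeR adjusted p = 0.000292), and Taldo1, transaldolase of the pentose phosphate pathway, rose by 3.71 ± 0.73. The iron exporter Slc40a1 fell by 7.39 on the log2 scale, to 0 and 0.0677 CPM with CHX, against 15.2 and 2.09 CPM with DMSO. With MG132, 9 were higher and 8 lower (median 0.08 against -0.07), where 5.10% of all tested genes were higher and 4.68% lower. Txnip held 299 and 400 CPM with MG132, against 31.3 and 19.9 CPM with DMSO (3.65 ± 0.34, edgeR adjusted p = 0.000226), and Glrx, glutaredoxin, 511 and 680 CPM with MG132, against 61.9 and 135 CPM with DMSO (2.46 ± 0.38). Gstm1, a glutathione transferase, was lower at 0.212 and 0 CPM with CHX (edgeR adjusted p = 0.00102) and at 0.138 and 0.0344 CPM with MG132 (adjusted p = 0.00195), against 23.6 and 9.95 CPM with DMSO. Both comparisons share the DMSO libraries.

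**Figure D4:**
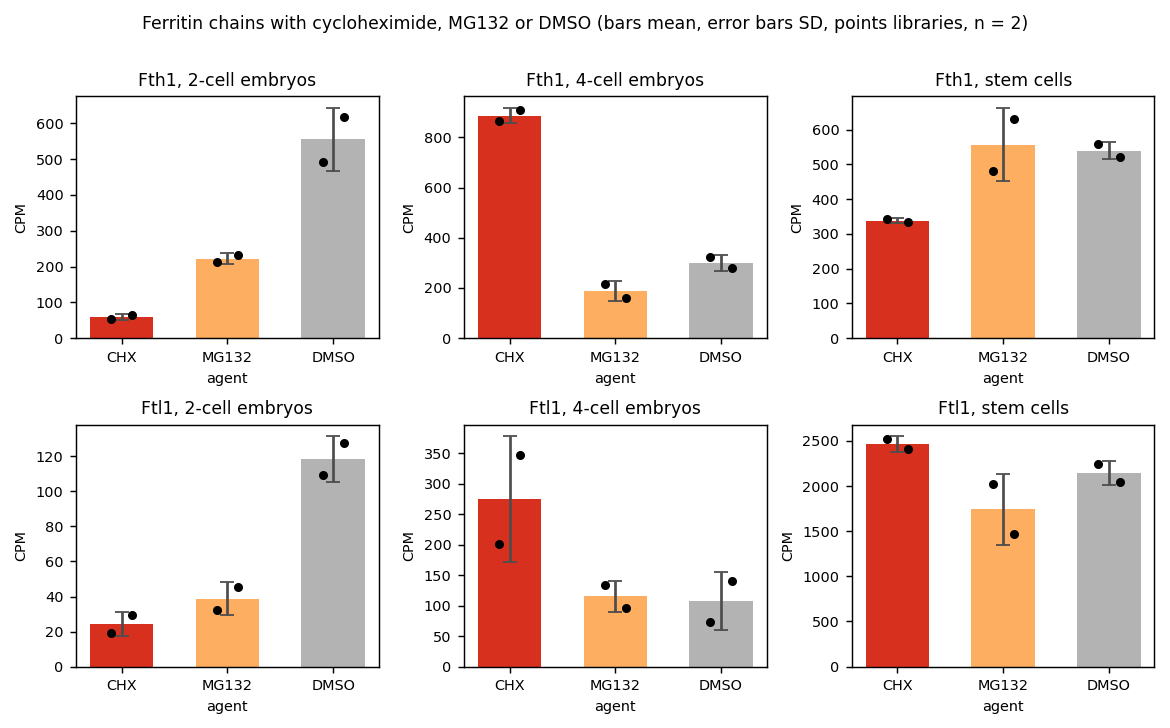
Fth1 (top) and Ftl1 (bottom) in CPM with CHX, MG132 or DMSO at 2 cells, at 4 cells and in stem cells; bars are means, error bars SD and points libraries, n = 2. Fth1 with CHX is lowest of the agents at 2 cells (59.7 ± 8.07 CPM) and in stem cells (338 ± 6.83 CPM) and highest at 4 cells (887 ± 30.7 CPM); each panel has its own axis from 0.

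At the 4-cell stage Fth1 was higher with CHX instead. It held 865 and 909 CPM with CHX, against 322 and 278 CPM with DMSO (1.12 ± 0.26, edgeR adjusted p = 0.02). Gclm held 23.8 and 20.9 CPM with CHX, against 4.16 and 6.57 CPM with DMSO (1.61 ± 0.41, edgeR adjusted p = 0.0252). These are 2 of 10 members higher and 0 lower, where 8.77% of all tested genes were higher and 10.3% lower, and the median over all genes was 0.44. Fth1 lost its call without CHX rep 2 or either DMSO library (0.0664 to 0.154), and Gclm without any 1 of the 4 (0.0852 to 0.21). Nfe2l2 held 47.1 and 22.9 CPM with CHX, against 1.46 and 7.08 CPM with DMSO (2.57 ± 0.88, edgeR adjusted p = 0.0736, DESeq2 adjusted p = 0.00813). Txnrd1 held 14.7 and 9.88 CPM with CHX, against 2.22 and 1.03 CPM with DMSO (2.44 ± 0.77, edgeR adjusted p = 0.0569, DESeq2 adjusted p = 0.00935). Groups did not overlap for either gene, but neither passed the edgeR test on all libraries with the low-count filter. With no such filter edgeR called both (adjusted p = 0.000269 and 0.0229), and without DMSO rep 2 it called Nfe2l2 (4.02, adjusted p = 0.0349). No member was called lower by edgeR with CHX at 4 cells. At an unadjusted p under 0.05 there were 5 members, all higher, and DESeq2 called 4. Of all 22520 tested genes, 7954 had an unadjusted p under 0.05, and DESeq2 called 6806.

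MG132 at 4 cells gave 0 called members of 10 with edgeR, where 3.06% of all tested genes were higher and 4.33% lower. There were 3 with an unadjusted p under 0.05 and 2 that DESeq2 called, beside 5486 and 4099 of all 22520 tested genes. Gclc held 44.1 and 22.4 CPM with MG132, against 8.93 and 9.42 CPM with DMSO (1.68 ± 0.51, edgeR adjusted p = 0.0857, DESeq2 adjusted p = 0.0139). Fth1 held 216 and 159 CPM with MG132, against 322 and 278 CPM with DMSO (-0.85 ± 0.26, edgeR adjusted p = 0.0874, DESeq2 adjusted p = 0.0186). Gclm had 1.03 ± 0.40 (edgeR adjusted p = 0.159). Between the agents, 1 member was called, Fth1, which was lower with MG132 than with CHX (-1.96 ± 0.27, edgeR adjusted p = 0.00445); that call held whichever library was left out. No member was higher, and 5.58% of all tested genes were higher and 4.51% lower. Here 6 members had an unadjusted p under 0.05, and DESeq2 called 4, beside 6011 and 4532 of all 22520 tested genes. Beside the CHX values, 2-cell-stage markers summed to 291 and 504 CPM with CHX, against 70.2 and 26.4 CPM with DMSO, and the oocyte markers to 150 and 154 CPM with CHX, against 46.2 and 66.5 CPM with DMSO. The 10 macrophage and blood markers summed to 293 and 270 CPM with CHX, against 25.0 and 45.5 CPM with DMSO; Hba-a1, an alpha globin, made up 275 and 256 CPM with CHX, while Hbb-bs and Hbb-bt had no count in either group. The 13 cumulus and granulosa markers summed to 13.9 and 26.5 CPM with CHX, against 459 and 443 CPM with DMSO, of which Gja1 made up 338 and 325 CPM with DMSO. With DMSO, 2 of the 13 averaged at least 1 CPM, while Amh, Foxl2, Fshr, Has2, Inha and Ptx3 were at 0. Of 9 tested, 0 were called higher and 2 lower with CHX. The median of the 9 went the other way, at 2.43 against 0.44 over all genes. The part of these markers in the result was not tested.

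Of 97 tested genes of the related lists at 4 cells, CHX gave 12 higher and 12 lower and MG132 4 higher and 7 lower. Of all tested genes, 8.77% were higher and 10.3% lower with CHX, and 3.06% higher and 4.33% lower with MG132. The glutathione and thioredoxin systems had 8 higher and 2 lower of 29 with CHX. With CHX, Bach1 held 21.9 and 30.6 CPM, against 106 and 124 CPM with DMSO (-2.57 ± 0.35, edgeR adjusted p = 0.00196), and Hmox2, the constitutive heme oxygenase, was lower (-2.04 ± 0.28). Blvrb rose to 70.5 and 43.3 CPM with CHX, against 1.55 and 6.98 CPM with DMSO (3.28 ± 0.70). With MG132, Slc7a11, the cystine importer that feeds glutathione synthesis, held 16.4 and 7.69 CPM, against 1.85 and 1.72 CPM with DMSO (2.57 ± 0.60, edgeR adjusted p = 0.0366). Mafk, a small MAF partner of NRF2, held 23.7 and 16.8 CPM with MG132, against 3.37 and 3.58 CPM with DMSO (2.37 ± 0.43, edgeR adjusted p = 0.0156), and Me1, the NADPH-forming malic enzyme, was higher by 1.85 ± 0.35. Prdx1, peroxiredoxin 1, was lower at 109 and 143 CPM with MG132, against 571 and 481 CPM with DMSO (-2.21 ± 0.28, edgeR adjusted p = 0.00527).

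In stem cells, CHX lowered 5 of the 10 members and raised none, where 13.4% of all tested genes were lower and 13.6% higher. Nqo1 held 33.3 and 33.9 CPM with CHX, against 67.2 and 68.1 CPM with DMSO (-1.09 ± 0.11, edgeR adjusted p = 0.000971), and this call held whichever library was left out. Gclm held 33.6 and 38.5 CPM with CHX, against 67.9 and 62.3 CPM with DMSO (-0.94 ± 0.14, edgeR adjusted p = 0.00362), and lost the call without rep 1 of either group (0.0526 and 0.0613). Fth1 held 343 and 333 CPM with CHX, against 558 and 522 CPM with DMSO (-0.76 ± 0.15, edgeR adjusted p = 0.0108). In all 3 genes the libraries of the groups lay clear of each other. Txnrd1 held 273 and 279 CPM with CHX, against 385 and 374 CPM with DMSO (-0.55 ± 0.11, edgeR adjusted p = 0.00883). Srxn1 held 40.6 and 37.5 CPM with CHX, against 52.8 and 51.7 CPM with DMSO (-0.51 ± 0.11, edgeR adjusted p = 0.0128). Fth1, Txnrd1 and Srxn1 lost their calls without any 1 of the 4 libraries (0.0671 to 0.171). Nfe2l2 (-0.02 ± 0.17), Gclc (-0.01 ± 0.11) and Gsta4 (-0.02 ± 0.11) were not called, nor were Hmox1 (0.21 ± 0.12) and Ftl1 (0.12 ± 0.17); for Nfe2l2, Gclc and Gsta4 the sign turned with DESeq2 size factors.

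MG132 in stem cells gave 0 called members of 10 with edgeR and 0 with DESeq2, where 1.90% of all tested genes were higher and 1.34% lower; 2 members had an unadjusted p under 0.05, Nfe2l2 (95.3 and 135 CPM with MG132, against 85.2 and 80.3 CPM with DMSO) and Nqo1 (52.9 and 59.9 CPM, against 67.2 and 68.1 CPM). Among all 18696 tested genes, 4572 had an unadjusted p under 0.05, and DESeq2 called 902. The MG132 libraries differed from each other in several members, such as Ftl1 (2023 and 1467 CPM) and Fth1 (482 and 632 CPM). Without MG132 rep 1, the log2 fold change was 0.70 for Nfe2l2, -0.55 for Ftl1 and 0.22 for Fth1. Without MG132 rep 2 it was -0.23 for Fth1. In these fits the lone library is assumed to vary like those of the other groups. Between the agents, MG132 over CHX gave 5 higher members, Fth1 (0.75 ± 0.15), Nqo1 (0.77 ± 0.11), Gclm (0.99 ± 0.14), Txnrd1 (0.45 ± 0.10) and Srxn1 (0.42 ± 0.11), with edgeR adjusted p between 0.00670 and 0.0352, and none lower, where 8.70% of all tested genes were higher and 8.78% lower. Each of the 5 lost its call without either CHX library, with log2 fold changes between 0.32 (Srxn1) and 1.05 (Gclm).

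Other cells' markers moved with agent in the stem cells. The 7 stroma, fibroblast and feeder markers summed to 580 and 575 CPM with CHX and to 605 and 574 CPM with MG132, against 1066 and 1294 CPM with DMSO, 6 of the 7 averaging at least 1 CPM in each group. The collagen genes led them: Col1a1 held 389 and 381 CPM with CHX, against 668 and 801 CPM with DMSO. Their part in the member changes was not tested. Of the 99 tested genes of the related lists, 9 were higher and 28 lower with CHX (median -0.19 against -0.04 over all genes), and 3 higher and 1 lower with MG132. Of all tested genes, 13.6% were higher and 13.4% lower with CHX, and 1.90% higher and 1.34% lower with MG132. Other NRF2 targets and detoxification enzymes had 1 higher and 11 lower of 25 with CHX. Among the lower genes was Gstm2, a glutathione transferase, at 3.23 and 4.16 CPM with CHX, against 12.6 and 13.4 CPM with DMSO (-1.90 ± 0.15, edgeR adjusted p = 0.000447). Txnip rose with CHX to 415 and 422 CPM, against 133 and 138 CPM with DMSO (1.54 ± 0.10), and to 214 and 211 CPM with MG132 (0.59 ± 0.10, edgeR adjusted p = 0.0294).

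The effects of each agent were then compared between stages and cell types by a test of the difference itself. An effect is called higher where its log2 fold change is more positive or less negative, which need not be a stronger change. The CHX effect on Fth1 differed between 4-cell and 2-cell embryos by 3.98 ± 0.47 (edgeR adjusted p = 6.99e-05) and that on Ftl1 by 2.87 ± 0.66 (adjusted p = 0.00715); both held whichever library was left out. The median difference over all genes was 1.24 in the same direction. These were 2 of 10 members with a higher effect at 4 cells and 0 with a lower one, where 13.4% and 6.42% of all tested genes had a higher or lower effect. For MG132, 1 member differed, Gsta4 (-2.12 ± 0.59, edgeR adjusted p = 0.0338), with 6.15% of all genes higher and 4.20% lower and a median over all genes of 0.42; it was -2.85 without 2-cell DMSO rep 2 and lost the call without any 1 of 6 of the 8 libraries and with library sizes from genes only. Gsta4 held 19.2 and 22.7 CPM with MG132 at 4 cells, against 28.6 and 20.3 CPM with DMSO, and at 2 cells the MG132 libraries lay above both DMSO libraries.

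Between stem cells and 2-cell embryos, the CHX effect was higher in stem cells for Hmox1 (4.19 ± 1.26), Fth1 (2.06 ± 0.37) and Ftl1 (2.01 ± 0.50) and lower for Nqo1 (-3.02 ± 0.38), Txnrd1 (-2.0 ± 0.34) and Gclm (-1.52 ± 0.48). That is 3 and 3 of 10 members, where 10.5% of all tested genes had a higher effect and 8.31% a lower one, with a median over all genes of 0.37. For Fth1 the log2 fold change with CHX was -0.76 in stem cells and -2.82 at 2 cells, so it fell less in stem cells. Nqo1 and Txnrd1 changed in opposite directions in the 2 systems: with CHX both were higher at 2 cells and lower in stem cells. Fth1, Nqo1 and Txnrd1 (edgeR adjusted p at most 0.00354) held whichever library was left out. Ftl1 (edgeR adjusted p = 0.0167) lost its call without any 1 stem cell library, Hmox1 (adjusted p = 0.0394) without any but DMSO 2-cell rep 1, with values between 2.81 and 5.30 where the call was lost, and Gclm (adjusted p = 0.0482) without any but DMSO 2-cell rep 2. For MG132 the effect was higher in stem cells for Fth1 (1.43 ± 0.37) and lower for Gsta4 (-1.91 ± 0.48) and Txnrd1 (-1.41 ± 0.34), 1 and 2 of 10, where 3.70% of all tested genes were higher and 3.37% lower and the median over all genes was 0.13. Fth1 was -0.02 with MG132 in stem cells, where it was not called, and -1.45 at 2 cells. The difference for Gsta4 was -2.64 without 2-cell DMSO rep 2. The differences of Fth1, Gsta4 and Txnrd1 (edgeR adjusted p between 0.0318 and 0.0402) lost their call without any 1 stem cell library. They also lost it without any 1 of 2 or 3 of the 2-cell libraries. Kit, cell type and any difference in dose or time cannot be told apart in these contrasts with stem cells.

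Over all 21 comparisons there were 57 calls among 199 tested values of the members, and 23 of them held whichever library was left out. How many calls over all genes held in this way was not counted. The share of all tested genes called ran from 0% (APH at 4 cells) to 27.4% higher and 34.4% lower (MII over P14 oocytes). Fth1 was called most often, in 9 of 17 comparisons of 2 groups, 5 higher and 4 lower, and Nqo1 in 8, 3 higher and 5 lower. Hmox1 was called in 2 of the 16 in which it could be tested. Several of these comparisons share libraries, so the counts are not independent.

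Fth1 and Ftl1 have copies and relatives, and the counting could have split reads between those alike in sequence. Their sequences were not compared. How reads with several positions were counted is not given in the sources used here. The processed pseudogene Ftl1-ps1 averaged 14.7 CPM in vehicle stem cells, where Ftl1 averaged 2144 CPM, and 6.59 CPM in H3.3K4M oocytes, against 1.79 CPM in H3.3WT oocytes. Fthl17f, an X-linked relative of the heavy chain, averaged 68.8 CPM with CHX at 4 cells, against 23.8 CPM with DMSO, and had no count in 2-cell embryos with CHX, against 10.3 CPM with DMSO. Fth-ps2, a copy of the heavy-chain gene, stayed under 3 CPM in every group. The levels of the ferritin genes are uncertain by what such copies could take or give.

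By the correlation of log2(CPM + 1) group means over the 16 groups, among 13450 genes, the members' nearest genes differed from one member to the next. Closest to Nfe2l2 were Gprasp1 (r = 0.963), Herc1 and Abhd2, and to Hmox1 Aldoc (0.987), Elmo2 and Lzts3. Closest to Ftl1 were Preb (0.956), Cdk4 and Etfdh, whereas Fth1 had no gene above Hspa2 (0.829), followed by Ccdc12 and Dusp22. For Gclc they were Pgrmc2 (0.976), Nup205 and Sfpq, and for Gclm Arhgap17 (0.964), Akna and Samd1. Txnrd1 was nearest to Gas6 (0.984), Zfp516 and Igf1r, and Srxn1 to Zfp462 (0.998), Aebp1 and Atn1. For Nqo1 they were Dock5 (0.972), Ackr3 and Bivm, and for Gsta4 Vars2 (0.962), Entpd6 and Snap47. Among the members, the closest pairs were Srxn1 and Hmox1 (0.939), Txnrd1 and Gclm (0.936) and Ftl1 and Hmox1 (0.903), and the lowest was Gsta4 and Fth1 (-0.093). These are descriptions over groups that share kit and cell type, and they were not computed without the stem cell groups.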

How the data were processed

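RNA was sequenced from oocytes and embryos (Smart-Seq2) and from stem cells (TruSeq poly(A)). Per the submitters' processing notes, cutadapt 1.16, STAR and the mm10 build were used; which counter and annotation were used, and how strand and multi-mapped reads were handled, is not given in the sources used here. The deposited files hold whole-number counts per gene and repeat subfamily, 1 file a library, that the authors had not normalised. Of 55335 gene identifiers, 55154 matched mouse GENCODE symbols once versions were removed. The 10 members and all lists were chosen with earlier results of these data known.

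CPM used the total over genes and 1153 repeat subfamilies. Tests used edgeR 4.0.16 in R 4.3.3 (TMM, quasi-likelihood F-test, filterByExpr with a minimum count of 10 and a total of 15), in 9 fits and 21 comparisons, 4 of these being differences between an agent's effects in 2 systems fitted together. The scripts were tested on simulated counts. The list genes named come from up to 3 called in each direction per comparison, those of largest change with at least 1 CPM and no overlap of libraries. Not all of these are named. Alternatives were DESeq2 1.42.0 (its size factors, and its Wald test), no low-count filter, the replicate number as a block, library sizes from genes only, and leaving out each library. Ratios of low counts have exact 95% intervals, and 3 counts stand for 0; both cover counting error only.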

Additional observations from a re-analysis of the deposited data

Results flagged for a closer look

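A test of the difference between 2 systems passed an adjusted p of 0.05 (edgeR) for 12 effects of an agent. For CHX at 4 cells against 2 cells these were Fth1 (log2 difference 3.98) and Ftl1 (2.87), and for MG132 Gsta4 (-2.12). For CHX in stem cells against 2-cell embryos they were Hmox1 (4.19), Fth1 (2.06), Ftl1 (2.01), Nqo1 (-3.02), Txnrd1 (-2.0) and Gclm (-1.52). For MG132 in stem cells against 2-cell embryos they were Fth1 (1.43), Gsta4 (-1.91) and Txnrd1 (-1.41). A positive value means a log2 fold change that was more positive or less negative at 4 cells or in stem cells, not a stronger effect. The 2 contrasts of CHX share the 2-cell libraries, as do the 2 of MG132, and stem cell libraries differ in kit from embryo libraries.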

How the results depend on the processing

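Of the 57 calls among 199 tested values of the members, 23 were kept in every alternative and whichever library was left out. The same was not counted over all genes. Counts of called members or genes moved by more than 1.5 times as follows; the cause was not tested. With the DESeq2 Wald test, all genes called were 1017 for age in MII oocytes (121 with edgeR), 1132 for 12-month 2-cell embryos (272), 584 for APH at 2 cells (45), 3678 for MG132 at 2 cells (2188), 3804 for MG132 over CHX at 2 cells (2128), 270 for APH at 4 cells (0), 6806 for CHX (4290), 4099 for MG132 (1663) and 4532 for MG132 over CHX (2273) at 4 cells, 4923 for the MG132 difference of 4 and 2 cells (2774) and 3222 for that of stem cells and 2 cells (1741). Members called were then 1, 1, 4, 2 and 4 for MII age, APH, CHX, MG132 and MG132 over CHX at 4 cells (0, 0, 2, 0 and 1 with edgeR), and 2 and 5 for the MG132 differences (1 and 3). With no low-count filter, genes called were 788, 962, 615, 347, 3463, 3932 and 1336 for MII age, 12-month 2-cell embryos, APH at 2 cells, APH, MG132 and MG132 over CHX at 4 cells, and MG132 in stem cells (606); members were 1, 1, 5, 2 and 4 for MII age and, at 4 cells, APH, CHX, MG132 and MG132 over CHX, 2 for the MG132 and 4 for the CHX difference of 4 and 2 cells. DESeq2 size factors left 1 member in the MG132 difference of stem cells and 2 cells, and library sizes from genes only left 0 in that of 4 and 2 cells.

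Replicate numbers recur across groups, but no label says that they mark a shared source. Among 2-cell drug groups, same-numbered libraries correlated in their deviations (r 0.229 to 0.429 among genes of at least 10 CPM), and in P14 (-0.402) and MII oocytes (-0.195) they opposed each other. With the replicate block, genes called were 188 for MII age, 438 for 12-month 2-cell embryos, 117 for APH at 2 cells and 203 for MG132 in stem cells, and 2 members were called for the MG132 difference of 4 and 2 cells. The block lost Fth1 in P14 (0.58, edgeR adjusted p = 0.0993) and Gclc between MII and P14 oocytes, and gained Txnrd1 with CHX at 4 cells. With the crossed replicate block, chosen after seeing the data, 5727 genes were called in P14 against 3444, and 7 members against 6, Txnrd1 being the member added.

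Leaving out single libraries gave these ranges of genes called: P14 2171 to 3783, MII age 0 to 1105, 2-cell over MII 2811 to 3453 (4641 with all), 12-month 2-cell 86 to 183, APH at 2 cells 5 to 148, MG132 at 2 cells 969 to 1805, MG132 over CHX at 2 cells 355 to 1812, APH at 4 cells 0 to 1, CHX at 4 cells 2335 to 2602, MG132 at 4 cells 581 to 1050, MG132 over CHX at 4 cells 1004 to 1834, CHX in stem cells 1071 to 1254 (5042 with all), MG132 in stem cells 8 to 9037, MG132 over CHX there 0 to 10315 (3267), and for the differences of MG132 and CHX 1413 to 2323 and 3381 to 4270 (5301) between 4 and 2 cells and 395 to 2578 and 2188 to 5015 (4628) between stem cells and 2 cells. Members called ranged over 0 to 1 for MII age, 5 to 7 for MII over P14, 1 to 2 for 2-cell over MII, 2 to 4 for 4-cell over 2-cell, 0 to 2 for MG132 and for MG132 over CHX at 2 cells, 0 to 1 for CHX at 4 cells, 1 to 2 for CHX, 0 to 6 for MG132 and 0 to 9 for MG132 over CHX in stem cells, 0 to 1 for the MG132 difference of 4 and 2 cells, and 0 to 4 and 3 to 6 for the MG132 and CHX differences of stem cells and 2 cells. Direction turned for Fth1 with MG132 in stem cells without MG132 rep 1 (0.22, and -0.02 with all; the lowest value was -0.23, without rep 2) and for Nqo1 in the MG132 difference of 4 and 2 cells without 4-cell MG132 rep 1 (-8.22, and 0.70 with all; the highest value was 1.86). Hmox1 and Srxn1 in embryos rest on few counts, where depth limits what can be told.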
